A study of Mus musculus with 2 samples.

Results

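Dppa2, Dppa3, Dppa4 and Dppa5a are the developmental pluripotency associated genes described here, 4 of the 33696 genes of a mouse single-cell RNA library. They were chosen by gene symbol, so no measured value picked them, and each had 1 gene entry in the matrix. The labels describe embryoid bodies on day 2, which are floating aggregates of differentiating cells, and the untreated epiblast stem cells they were made from, with 1 sample in each group. Both samples carry the cell line name Delmix, and no transgene, knockout or added agent is given in the labels. Cells were dissociated with trypsin and captured in droplets for 3' single-cell sequencing, with a target of 10000 cells per sample. The counts lie in 1 matrix whose 2 cell tags match neither sample name, so embryoid bodies were not compared with epiblast stem cells. The labels describe a separate channel for each sample, and whether the matrix holds cells of 1 sample or of both is not settled by them. All values describe this 1 library by cluster of cells, with no test and no p-value.

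The Dppa genes take their shared name from expression in early embryos and pluripotent cells, not from a shared protein family. DPPA2 and DPPA4 are related proteins with a SAP domain that bind each other on chromatin, and in mouse embryonic stem cells they act upstream of Dux and the genes of the two-cell embryo. DPPA3, also called Stella or PGC7, is a maternal protein that protects DNA methylation in the zygote, limits UHRF1 at chromatin, and marks primordial germ cells and naive pluripotent cells. DPPA5A, also called ESG1, is a KH domain protein that binds RNA and belongs with OOEP and KHDC3 to a small family of oocyte and embryo proteins.

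Some of these genes have processed copies of similar sequence elsewhere in the genome, which can bear on how reads are given to them. In GENCODE M21 (GRCm38), Dppa2 and Dppa4 both lie on the plus strand of chromosome 16, Dppa3 on chromosome 6 and Dppa5a on chromosome 9. The pseudogenes Dppa5b and Dppa5c, also on chromosome 9, matched the Dppa5a transcript of 619 bases at 313 of 343 aligned bases (91.3%). The pseudogene Dppa3-ps on chromosome X matched the Dppa3 transcript at 443 of 451 aligned bases (98.2%). The stretches of 116 bases (Dppa5a) and 150 bases (Dppa3) below are the starts of the first aligned block of each pair, shown so that the likeness of gene and copy can be read base by base. They are written 5′ to 3′ on the strand of each gene, and capitals mark the bases that differ between the gene and its copy.
Dppa5a: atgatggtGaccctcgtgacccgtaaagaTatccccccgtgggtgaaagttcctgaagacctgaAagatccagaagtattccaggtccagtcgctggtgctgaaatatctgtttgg
Dppa5b: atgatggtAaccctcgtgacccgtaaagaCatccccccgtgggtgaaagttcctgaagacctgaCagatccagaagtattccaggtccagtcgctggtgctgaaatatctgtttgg
Dppa5c: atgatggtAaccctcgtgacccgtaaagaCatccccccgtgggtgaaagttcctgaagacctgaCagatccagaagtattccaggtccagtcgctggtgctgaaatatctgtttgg
Dppa3: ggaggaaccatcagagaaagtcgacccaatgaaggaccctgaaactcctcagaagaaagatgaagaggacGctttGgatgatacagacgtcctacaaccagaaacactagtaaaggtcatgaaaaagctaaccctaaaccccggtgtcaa
Dppa3-ps: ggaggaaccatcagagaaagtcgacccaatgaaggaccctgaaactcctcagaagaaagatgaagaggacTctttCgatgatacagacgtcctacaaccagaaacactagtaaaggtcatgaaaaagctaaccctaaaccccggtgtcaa
Dppa5b and Dppa5c were identical to each other here and differed from Dppa5a at 3 bases, and Dppa3-ps differed from Dppa3 at 2 bases. The stretch shown for Dppa5a is more alike than its whole alignment. None of the 3 pseudogenes had an entry in the matrix. The level given for Dppa3 or Dppa5a is therefore the level counted for that gene entry, and the part that reads of a copy could have in it was not tested. Protein and promoter sequences of the members were not used here.

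Counts are unique molecular identifiers (UMIs), each standing for a single captured RNA molecule. A filter of 1000 or more genes per cell and no more than 10% mitochondrial UMIs kept 16841 of 21593 called cells. They had a median of 6473 UMIs and held 358001 UMIs of the 4 genes, 0.296% of all their UMIs. Clustering without the 4 genes gave 11 clusters. The labels name epiblast cells throughout, and 27.9% of kept cells fell in a naive pluripotency-like cluster. No cluster met the rule for primed epiblast, which asks for markers raised 2-fold over all other kept cells. The primed list led in cluster 2, with 3 markers in its top 10 genes but only 2 of 18 raised 2-fold. A state shared by many cells can miss such a rule, so primed cells are not shown to be absent. Cluster 1 was naive pluripotency-like (4703 cells, led by Zfp42, Mylpf, Esrrb, Nr5a2 and Klf2), cluster 5 primitive streak and mesoderm-like (689 cells, Prdm6, Cyp26a1, Fgf10, Mesp1 and Mixl1), cluster 7 fibroblast-like (531 cells), cluster 10 two-cell-like (193 cells) and cluster 11 macrophage-like (81 cells). The other 6 took no cell type name and are called by their leading genes: cluster 2 by Pou3f1 and Car4 (3948 cells), cluster 3 by Krt8 and Krt18 (3780 cells), cluster 4 by Fgf8 and Meis2 (1648 cells), cluster 6 by Hs3st5 and Bnc2 (658 shallow cells), cluster 8 by Rhox6 and Rhox9 (374 cells) and cluster 9 by Fabp7 and Pax3 (236 cells). Levels are counts per 1000000 UMIs (CPM), from the summed UMIs of each cluster; intervals are 95% exact Poisson limits and cover counting error only.

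Each of the 4 genes had its highest levels in clusters 1, 8 and 10, but they did not share 1 order. In cluster 10, Dppa4 and Dppa5a were close to the level of other kept cells (log2 ratios 0.17 and 0.08). The interval of Dppa4 there overlapped that of cluster 2. Dppa2 was highest in the two-cell-like cluster, and Dppa3, Dppa4 and Dppa5a were highest in the Rhox6 and Rhox9 cluster. The level in the highest of the 11 clusters was 17.6 times that in the lowest for Dppa2, 26.8 times for Dppa3, 5.77 times for Dppa4 and 9.81 times for Dppa5a. Dppa1, the family name not listed among the members, had 1 UMI in all kept cells.

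**Figure D1:**
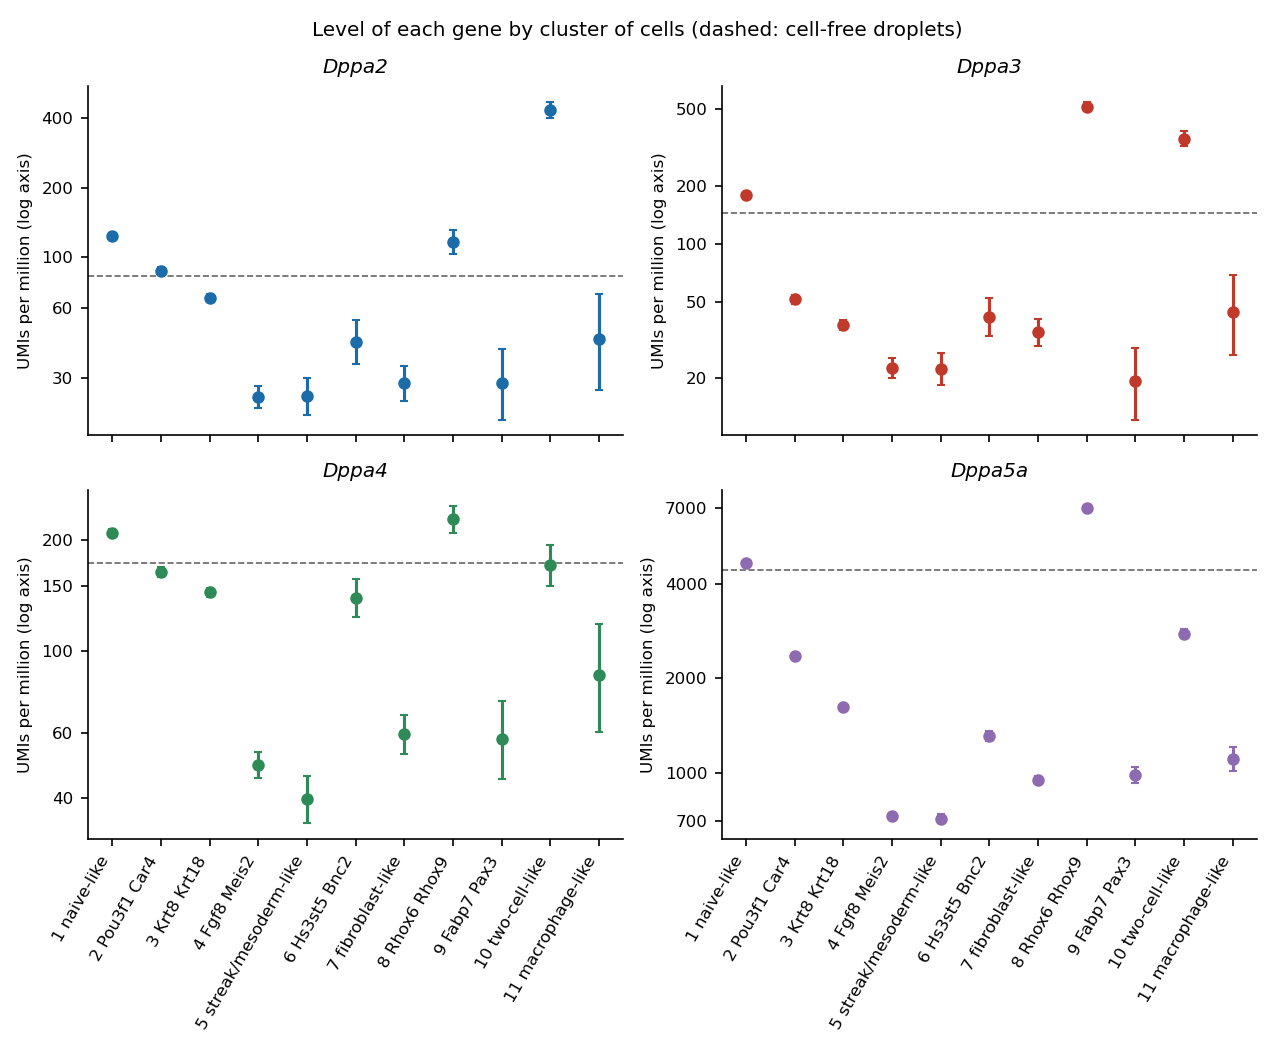
Level of each gene in CPM (log axes) in each of 11 clusters of cells, with 95% exact Poisson bars; the dashed line is the level in cell-free droplets. Dppa2 stands highest in the two-cell-like cluster at 435 CPM, and the other 3 genes stand highest in the Rhox6 and Rhox9 cluster, at 516 CPM for Dppa3, 228 CPM for Dppa4 and 6991 CPM for Dppa5a.

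Dppa2, the SAP domain partner of Dppa4, had 435 CPM in the two-cell-like cluster (interval 402 to 471). It had 124 CPM in the naive-like cluster and 116 CPM in the Rhox6 and Rhox9 cluster, whose intervals overlapped. Next came 87.0 CPM in cluster 2 and 66.5 CPM in cluster 3. The other 6 clusters held 44.0 CPM (cluster 11), 42.9 CPM (cluster 6), 28.5 CPM (cluster 9), 28.4 CPM (cluster 7), 25.0 CPM (cluster 5) and 24.7 CPM (cluster 4). Along this order, 3 of the 10 steps between neighbouring clusters lay outside overlapping intervals, and all 6 lowest clusters overlapped their neighbours.

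Dppa4 had the narrowest range of the 4 genes. It had 228 CPM in the Rhox6 and Rhox9 cluster and 209 CPM in the naive-like cluster, with overlapping intervals (209 to 248 and 205 to 214). The two-cell-like cluster held 171 CPM, cluster 2 163 CPM, cluster 3 144 CPM and cluster 6 139 CPM. Lower levels of 85.8, 59.4, 57.8, 49.0 and 39.5 CPM stood in clusters 11, 7, 9, 4 and 5. Of the 10 steps, 3 had separate intervals, namely cluster 1 over cluster 10, cluster 2 over cluster 3 and cluster 6 over cluster 11.

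Dppa3 was high in only a few clusters. It had 516 CPM in the Rhox6 and Rhox9 cluster (interval 488 to 545), 351 CPM in the two-cell-like cluster (321 to 383) and 179 CPM in the naive-like cluster (175 to 184), each apart from the next. The next cluster, cluster 2, held 51.4 CPM. The rest of the order was 44.0 CPM in cluster 11, 41.9 CPM in cluster 6, 37.9 CPM in cluster 3, 34.7 CPM in cluster 7, 22.7 CPM in cluster 4, 22.4 CPM in cluster 5 and 19.3 CPM in cluster 9. In this lower part the intervals of neighbours overlapped except between clusters 7 and 4.

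Dppa5a had by far the most UMIs, 318077 of the 358001 counted for the 4 genes. Its level was 6991 CPM in the Rhox6 and Rhox9 cluster (interval 6886 to 7098), 4666 CPM in the naive-like cluster and 2773 CPM in the two-cell-like cluster. It was 2348 CPM in cluster 2, 1613 CPM in cluster 3, 1306 CPM in cluster 6 and 1106 CPM in cluster 11. The 4 lowest levels were 984 CPM in cluster 9, 946 CPM in cluster 7, 725 CPM in cluster 4 and 712 CPM in cluster 5. For this gene 7 of the 10 steps had separate intervals. Because 3' sequencing counts a transcript once whatever its length, these levels can be set beside those of the other 3 genes as captured molecules, apart from differences in capture.

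Cell-free droplets carried the 4 genes as well. In 72027 uncalled droplets of 150 to 300 UMIs, Dppa2 had 82.7 CPM, Dppa3 145 CPM, Dppa4 174 CPM and Dppa5a 4418 CPM. A cluster level below its dashed line is therefore not by itself a sign of transcription in those cells, and how much of each low level was free RNA was not measured. The fibroblast-like cluster, cells that should lack these genes, serves as the background for the shares of cells given later.

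Called doublets, droplets whose profile looks like 2 cells, moved with the low levels. Scrublet called 1730 kept cells doublets (10.3%). In cluster 4, Dppa5a had 2019 CPM in the 220 called doublets and 329 CPM in the 1428 other cells. In the fibroblast-like cluster it had 1844 CPM in the 124 called doublets, with a median of 15.5 UMIs per cell, and 498 CPM in the 407 others, with a median of 1 UMI. In those same 407 cells, Dppa2 had 12.6 CPM, Dppa3 18.7 CPM and Dppa4 28.7 CPM. Cluster 5, the primitive streak and mesoderm-like one, had without called doublets 8.37 CPM for Dppa2, 9.92 CPM for Dppa3, 16.4 CPM for Dppa4 and 279 CPM for Dppa5a. The high clusters held their levels without called doublets: Dppa2 had 476 CPM in the two-cell-like cluster and 127 CPM in the naive-like cluster, and Dppa3 had 517 CPM in the Rhox6 and Rhox9 cluster and 185 CPM in the naive-like cluster.

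The naive pluripotency-like cluster held more of each gene than the other kept cells together, and 2 of the 4 passed a 2-fold difference. Dppa3 had 179 CPM in naive-like cells and 57.3 CPM in other cells, a log2 ratio of 1.63. Dppa5a had 4666 CPM in naive-like cells and 1767 CPM in other cells (log2 ratio 1.40). Dppa2 had 124 CPM in naive-like cells and 68.5 CPM in other cells (0.85), and Dppa4 had 209 CPM in naive-like cells and 127 CPM in other cells (0.72). In the same comparison 2.11% of all 7018 genes compared were at least 2-fold higher in naive-like cells and 5.57% at least 2-fold lower. The median log2 ratio was 1.12 over the 4 genes and -0.05 over all genes compared.

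Other genes that belong with the 4 in pluripotency and DNA methylation differed in the same comparison. Among the core factors, Nanog had 128 CPM in naive-like cells and 43.3 CPM in other cells, and Sox2 had 332 CPM in naive-like cells and 131 CPM in other cells. Pou5f1, also a core factor, was under 2-fold, with 636 CPM in naive-like cells and 513 CPM in other cells. Of 12 methylation genes listed around Dppa3, 11 reached 20 CPM on either side and were compared. Of these, 4 were at least 2-fold higher and none lower, beside 2.11% and 5.57% of all genes. The 4 were Zfp57, which keeps imprints (log2 ratio 1.80), the methylcytosine oxidases Tet2 (1.37) and Tet1 (1.19), and Dnmt3l, a cofactor of de novo methylation (1.05). Zfp57 and Tet2 reached 20 CPM only in naive-like cells, so they could not be counted as lower. The median log2 ratio of the 11 was 0.25, beside -0.05 for all genes. Ooep, the only KH relative of Dppa5a that reached 20 CPM, had 296 CPM in naive-like cells and 75.3 CPM in other cells. Of 17 primed epiblast genes compared, none was higher and 8 were lower by at least 2-fold, beside 2.11% and 5.57% of all genes. Among the 8 were Fst (log2 ratio -2.89) and Pim2 (-2.25). Fst reached 20 CPM only in other cells, so it could not be counted as higher.

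**Figure D2:**
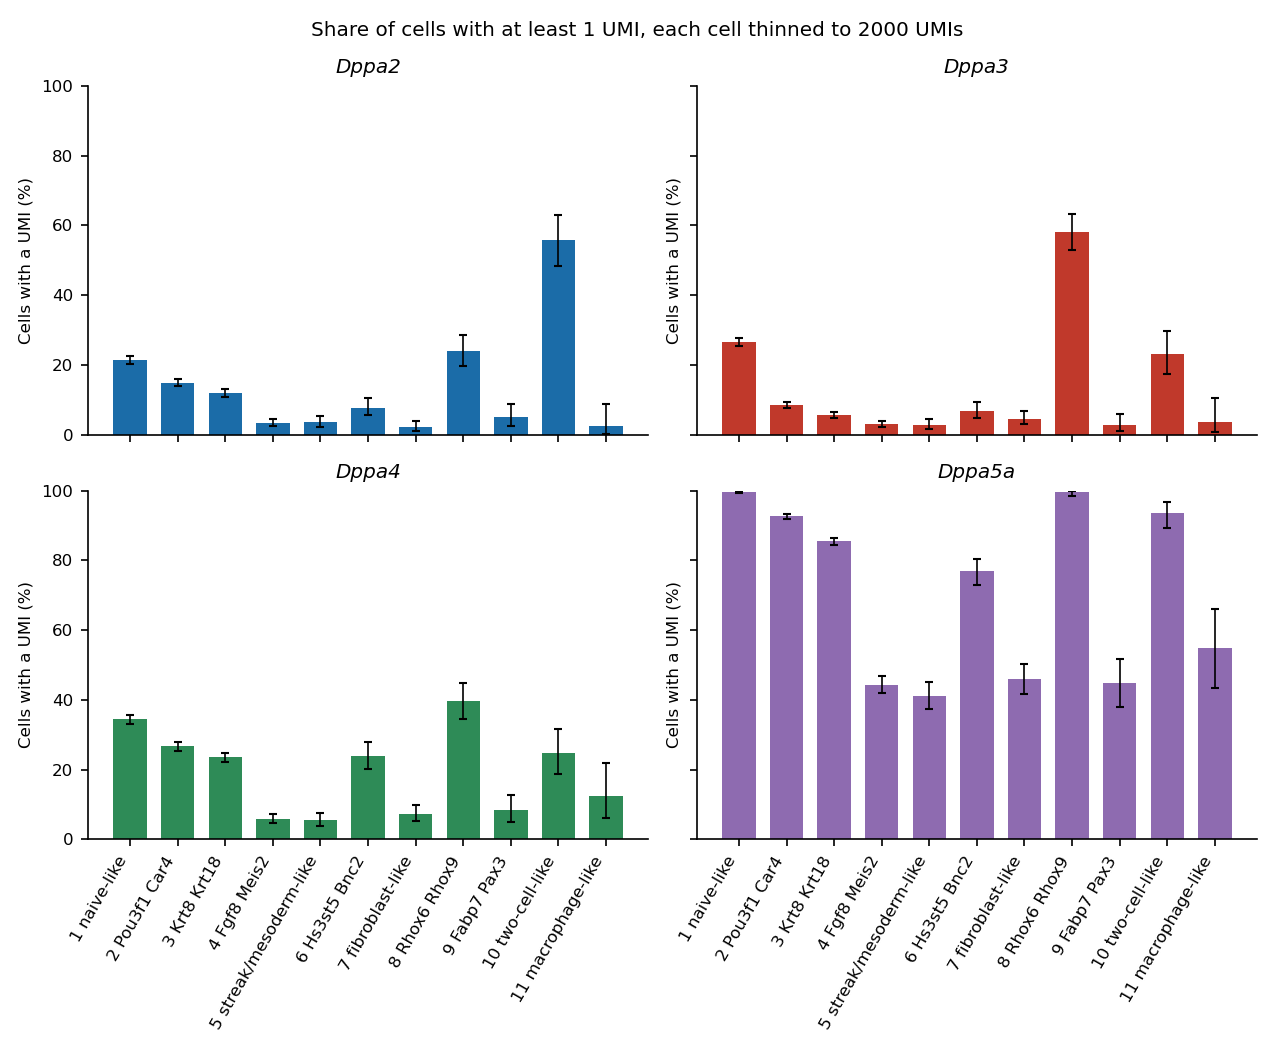
Share of cells (%) with at least 1 UMI of each gene in each cluster after every cell was thinned to 2000 UMIs, with 95% exact binomial bars. Dppa5a was seen in 99.5% of naive-like cells, whereas Dppa2 was seen in 55.8% of two-cell-like cells and 21.4% of naive-like cells.

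Shares of cells told the 4 genes apart by abundance. Each cell was thinned to 2000 UMIs, and 294 cells below that depth, 36 of them naive-like, were dropped. Dppa5a was seen in 99.5% of naive-like cells, with a median of 9 UMIs. Dppa4 was seen in 34.4% of naive-like cells, Dppa3 in 26.5% and Dppa2 in 21.4%. In the fibroblast-like cluster, whose cells had a median of 7391 UMIs before thinning against 6933 UMIs in naive-like cells, the shares were 45.8% for Dppa5a, 7.36% for Dppa4, 4.53% for Dppa3 and 2.26% for Dppa2. Without called doublets the fibroblast-like shares were 37.4% for Dppa5a, 3.94% for Dppa4, 3.20% for Dppa3 and 1.72% for Dppa2. Dppa5a was seen in 92.6% of cluster 2 cells and 85.4% of cluster 3 cells, above the fibroblast-like share. Its shares of 44.2% in cluster 4, 41.2% in cluster 5 and 44.7% in cluster 9 lay at or below it and are read as background. The macrophage-like cluster (80 cells), which should also lack the genes, had 55.0% for Dppa5a (interval 43.5 to 66.2%) and 12.5% for Dppa4. Its shares were 3.75% for Dppa3 and 2.50% for Dppa2. Without called doublets it had 38.7% for Dppa5a and 4.84% for Dppa4. Unthinned, Dppa2 was seen in 55.1% of naive-like cells and 16.4% of fibroblast-like cells.

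The 4 genes followed the other naive markers across all cells, and Dppa3 did so most steeply. Cells thinned to 2000 UMIs were put in 10 equal groups by their UMIs of the naive list, which holds no Dppa gene; cells of the 2 lowest groups had none of those UMIs, and cells of the highest group had 8 to 24. Dppa3 had 217 CPM in the highest group and 36.9 CPM in the lowest, 5.89 times as much. Dppa5a had 4996 CPM in the highest group and 1209 CPM in the lowest (4.13 times). Dppa2 had 139 CPM in the highest group and 52.5 CPM in the lowest (2.65 times), and Dppa4 199 CPM in the highest and 103 CPM in the lowest (1.94 times). Dppa4 levelled off, with 194, 200 and 199 CPM in the top 3 groups, while Dppa3 had 153, 197 and 217 CPM there. The share of called doublets was 4.05% in the highest group and 6.11% in the lowest, with up to 17.4% between them.

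**Figure D3:**
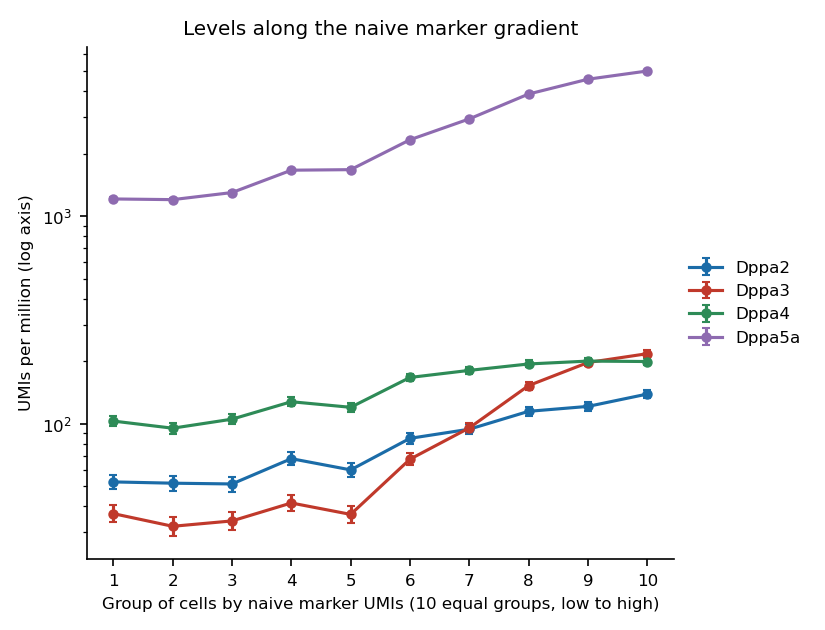
Level of each gene in CPM (log axis) in 10 equal groups of cells ordered from few to many UMIs of naive pluripotency markers, with 95% exact Poisson bars. Dppa3 climbs above Dppa2 in the upper groups, reaching 217 CPM against 139 CPM in the highest group, and Dppa4 is flat near 199 CPM in the top groups.

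The two-cell-like cluster was set apart by Dppa2. Its cells were led by Eif1ad10 and Zscan4d, genes known from the mouse two-cell embryo and from rare cells in stem cell cultures. Dppa2 had 435 CPM in two-cell-like cells and 80.7 CPM in other cells (log2 ratio 2.42), and Dppa3 had 351 CPM in two-cell-like cells and 90.4 CPM in other cells (1.95). Dppa4 had 171 CPM in two-cell-like cells and 151 CPM in other cells (0.17), and Dppa5a had 2773 CPM in two-cell-like cells and 2624 CPM in other cells (0.08). Thus 2 of the 4 passed a 2-fold difference, against 8.82% of all 7338 genes compared that were at least 2-fold higher in two-cell-like cells and 5.11% that were lower. Set against the naive-like cluster alone, Dppa2 passed it (log2 ratio 1.81) and Dppa3 fell just short (0.97), beside 10.1% of all genes higher and 4.62% lower; the log2 ratio was -0.29 for Dppa4 and -0.75 for Dppa5a.

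Dppa2 and Dppa4, whose proteins work as a pair, changed places there, with more UMIs of Dppa2 than of Dppa4. The ratio of Dppa2 to Dppa4 UMIs was 2.55 in the two-cell-like cluster (interval 2.20 to 2.97, from 625 and 245 UMIs) and 0.591 in the naive-like cluster (0.570 to 0.614). In the other 9 clusters it ran from 0.308 (cluster 6) to 0.632 (cluster 5), and it was 0.477 in cell-free droplets. No other cluster reached a ratio of 1 within its interval.

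**Figure D4:**
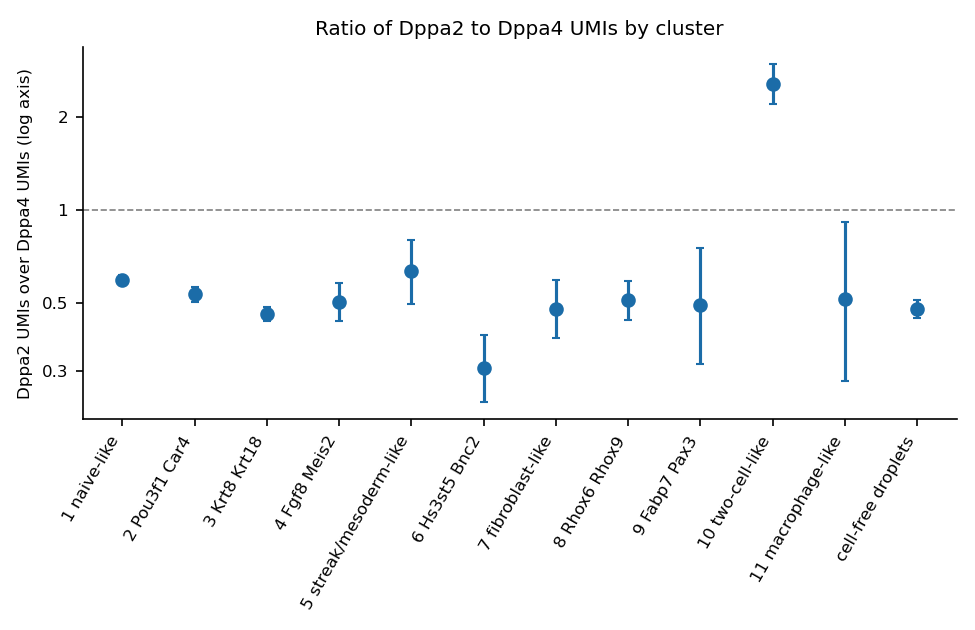
Ratio of Dppa2 to Dppa4 UMIs (log axis) in each cluster and in cell-free droplets, with 95% exact intervals; the dashed line marks equal UMIs. The two-cell-like cluster stands alone above the line at 2.55, and the others lie between 0.308 and 0.632.

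Within single two-cell-like cells Dppa2 and Dppa3 were spread differently. At 2000 UMIs per cell, Dppa2 was seen in 55.8% of 190 two-cell-like cells (interval 48.4 to 63.0%), against 21.4% of naive-like cells and 2.26% of fibroblast-like cells. Dppa3 was seen in 23.2% of two-cell-like cells and 26.5% of naive-like cells, although its CPM was higher in two-cell-like cells, so no order is read from these shares. The UMIs of Dppa3 were uneven: 5.26% of two-cell-like cells had 5 or more, with up to 14 in 1 cell, against 0.214% of naive-like cells with 5 or more. Dppa4 was seen in 24.7% of two-cell-like cells and 7.36% of fibroblast-like cells, and Dppa5a in 93.7% of two-cell-like cells and 45.8% of fibroblast-like cells.

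The level of Dppa2 went with the number of two-cell UMIs per cell. In cells with 0, 1 to 2, 3 to 9 and 10 or more UMIs of two-cell markers (16316, 107, 64 and 60 cells), Dppa2 had 81.3, 173, 482 and 551 CPM. Dppa3 had 91.1, 105, 319 and 564 CPM in the same groups, so its level was near that of the unmarked cells at 1 to 2 UMIs and high only from 3 UMIs on. Dppa4 had 151, 134, 200 and 170 CPM, and Dppa5a had 2630, 2354, 2927 and 2864 CPM, with no steady order in either. None of the 60 cells with 10 or more two-cell UMIs was a called doublet. Inside the naive-like cluster, the 24 cells with at least 1 two-cell UMI had 214 CPM of Dppa2 (interval 157 to 285), against 123 CPM in the 4643 without, whereas Dppa3 had 177 CPM in the 24 and 179 CPM in the 4643.

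**Figure D5:**
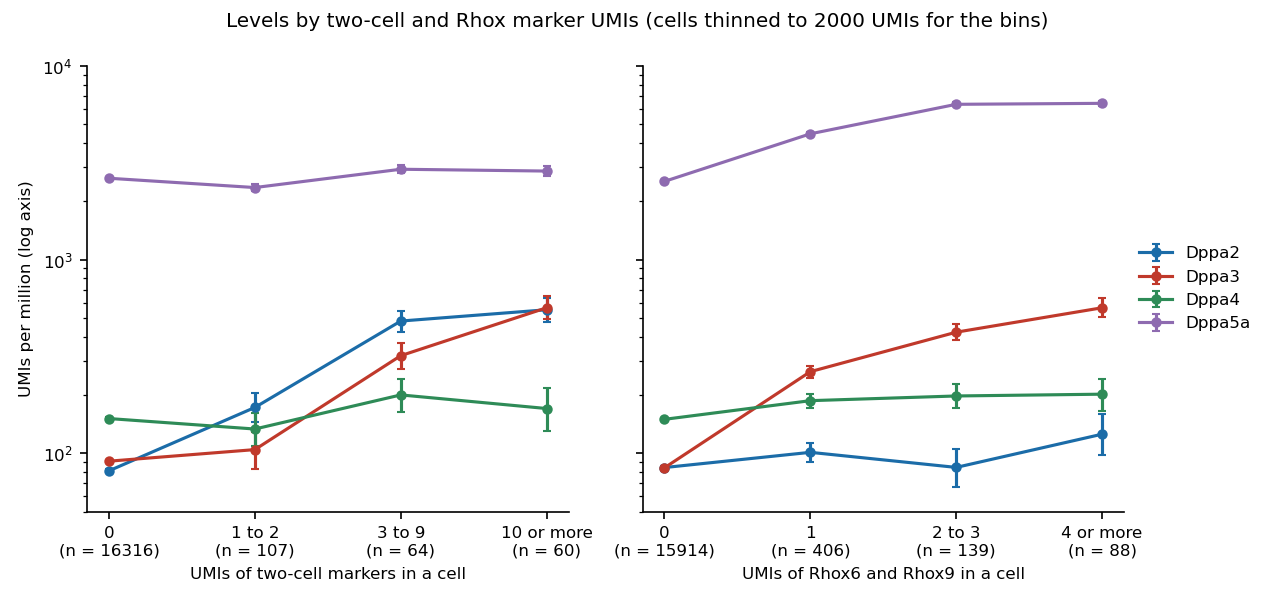
Level of each gene in CPM (log axis) in cells grouped by UMIs of two-cell markers (left) and of Rhox6 and Rhox9 (right), with the number of cells and 95% exact Poisson bars. Dppa2 and Dppa3 are higher with two-cell UMIs, at 551 and 564 CPM in the last group, while Dppa3 and Dppa5a are higher with Rhox UMIs, at 564 and 6405 CPM.

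The listed genes that DPPA2 and DPPA4 act upstream of are all among the markers that named this cluster. Their levels therefore describe the cluster and are no separate result about the 2 genes. Of the 10 listed, 9 had a gene entry and 8 reached 20 CPM, and all 8 were at least 2-fold higher in two-cell-like cells. Of 11 naive markers compared with other cells, 2 were at least 2-fold lower and 1 was higher, beside 5.11% and 8.82% of all genes. The 2 lower were Esrrb (log2 ratio -1.31) and Tfcp2l1 (-1.28), which reached 20 CPM only in other cells. The 1 higher was Fbxo15 (3.17). The median log2 ratio of the 11 was -0.23, beside -0.22 for all genes. Against the naive-like cluster, which these markers define, 9 of 14 were at least 2-fold lower and 1 was higher, beside 4.62% and 10.1% of all genes. Nanog had 39.7 CPM in two-cell-like cells and 128 CPM in naive-like cells. Of 16 listed germline genes known to be held off by DNA methylation, 7 reached 20 CPM on either side and were compared. In two-cell-like cells 5 of the 7 were at least 2-fold higher than in other cells, beside 8.82% of all genes. Sycp1 (2.29), Stk31 (2.22) and Slc25a31 (2.17) were in front. These 3 reached 20 CPM only in two-cell-like cells (20.2, 71.7 and 23.7 CPM), so they could be counted as higher but not as lower. No result about the list is read from this count. Against the naive-like cluster 3 of 7 were at least 2-fold higher, the same 3 genes, beside 10.1% of all genes.

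The Rhox6 and Rhox9 cluster was set apart by Dppa3 and Dppa5a. Its leading genes included Rhox6, Rhox9, Calcoco2 and Aard, and the Rhox genes are X-linked homeobox genes of the germ line and placenta. Dppa3 had 516 CPM in this cluster and 84.9 CPM in other cells (log2 ratio 2.59), and Dppa5a had 6991 CPM in this cluster and 2538 CPM in other cells (1.46). Dppa4 had 228 CPM in this cluster and 150 CPM in other cells (0.60), and Dppa2 had 116 CPM in this cluster and 84.2 CPM in other cells (0.46). Among all 7099 genes compared, 4.14% were at least 2-fold higher in this cluster and 6.79% at least 2-fold lower. Against the naive-like cluster Dppa3 alone of the 4 passed a 2-fold difference (log2 ratio 1.52), beside 3.1% of all genes higher and 2.7% lower; the log2 ratio was 0.58 for Dppa5a, 0.12 for Dppa4 and -0.09 for Dppa2.

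Dppa3 was also seen in a larger share of these cells than of any other cluster. At 2000 UMIs per cell it was seen in 58.2% of 371 cells (interval 53.0 to 63.3%), against 26.5% of naive-like cells and 4.53% of fibroblast-like cells. At least 2 UMIs were seen in 29.6% of cells of the Rhox cluster and in 7.29% of naive-like cells. Dppa5a was seen in 99.7% of cells of this cluster with a median of 14 UMIs, against a median of 9 in naive-like cells. The cluster held few called doublets (0.267% of its cells, against 10.3% of all kept cells), and its median depth was 6026 UMIs. All 4 genes were seen together in 7.01% of its cells, in 2.14% of naive-like cells, in 2.63% of two-cell-like cells and in 0.377% of fibroblast-like cells.

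Primordial germ cell genes stood high in the same cluster. Of 10 listed genes, 7 reached 20 CPM in this cluster or in other cells. Of these 7, 6 were at least 2-fold higher, beside 4.14% of all genes. Among the 6, Tfap2c had 215 CPM in this cluster and 33.1 CPM in other cells, and Ifitm1 618 CPM here and 112 CPM in other cells. Prdm1 had 71.0 CPM here and 15.6 CPM in other cells, and Nanos3 51.1 CPM here and 12.3 CPM in other cells. Prdm1 and Nanos3 reached 20 CPM only in this cluster, so they could be counted as higher but not as lower. Against the naive-like cluster 5 of 7 were at least 2-fold higher, without Nanos3, beside 3.1% of all genes. The naive-like cluster itself had 2 of 5 such genes, Tfap2c and Nanos3, at least 2-fold above other cells, beside 2.11% of all genes. Tfap2c had 79.6 CPM in naive-like cells and 18.6 CPM in other cells, and Nanos3 27.6 CPM and 6.89 CPM. Both reached 20 CPM only in naive-like cells, so they too could not be counted as lower. The primordial germ cell genes took part in the clustering, so their values describe the cluster. Of the 11 methylation genes compared, 2 were at least 2-fold lower and none higher, beside 6.79% and 4.14% of all genes. Their median log2 ratio was 0.17, beside -0.07 for all genes, so the list as a whole was not lower. The 2 were the de novo methyltransferases Dnmt3b (68.1 CPM in this cluster and 297 CPM in other cells) and Dnmt3a (21.6 CPM here and 79.5 CPM in other cells). Uhrf1, which brings maintenance methylation to DNA and which DPPA3 limits, had 90.1 CPM in this cluster and 170 CPM in other cells (log2 ratio -0.91), which is under 2-fold. Against the naive-like cluster, with 190 CPM, its log2 ratio was -1.07. No cell type name is given to the cluster, because the list it matched, of germ cell and Rhox genes, names no single cell type.

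The level of Dppa3 went with Rhox UMIs per cell over all thinned cells, those of the Rhox cluster included. In cells with 0, 1, 2 to 3 and 4 or more UMIs of Rhox6 and Rhox9 (15914, 406, 139 and 88 cells), Dppa3 had 84.2, 264, 422 and 564 CPM. Dppa5a had 2533, 4458, 6331 and 6405 CPM in these groups, so it was flat over the top 2. Dppa2 had 84.5, 101, 84.6 and 126 CPM, and Dppa4 150, 187, 198 and 202 CPM. Inside the naive-like cluster, which leaves out the Rhox cluster, the 197 cells with at least 1 Rhox UMI had 288 CPM of Dppa3, against 174 CPM in the 4470 without. Dppa5a had 5367 CPM in the 197 and 4631 CPM in the 4470. Dppa2 had 130 CPM in the 197 and 124 CPM in the 4470, and Dppa4 had 210 CPM in the 197 and 209 CPM in the 4470. Called doublets made up 15.2% of the 197 and 11.1% of the 4470.

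Naive-like cells were also split by how much Dppa3 was drawn from them. At 2000 UMIs per cell, 340 naive-like cells gave 2 or more Dppa3 UMIs and 3428 gave none, with median depths of 6904 and 6993 UMIs. Over all their UMIs Dppa3 had 652 CPM in the 340 and 96.8 CPM in the 3428, so the 3428 still held Dppa3 and the split rests partly on the draw. Dppa2 had 133 CPM in the 340 and 121 CPM in the 3428, Dppa4 had 199 CPM in the 340 and 207 CPM in the 3428, and Dppa5a had 5147 CPM in the 340 and 4560 CPM in the 3428. Among 6525 genes, Dppa3 included, 0.0613% were at least 2-fold higher in the 340 and 0.046% at least 2-fold lower. Rhox6 had 29.9 CPM in the 340 and 13.5 CPM in the 3428. Tfap2c, a germ cell transcription factor, had 122 CPM in the 340 and 70.4 CPM in the 3428, and Ifitm1 had 297 CPM in the 340 and 169 CPM in the 3428, both under 2-fold. Ntn1, a guidance ligand, had 71.6 CPM in the 340 and 136 CPM in the 3428, also under 2-fold.

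Within the naive-like, two-cell-like and Rhox clusters, Dppa2 and Dppa4 were seen in the same cells about as often as their separate shares give. Over all thinned cells, 760 held both, 1.31 times the product of the single shares. Within the naive-like cluster 363 cells held both where the single shares give 343 (1.06 times, counting interval 0.952 to 1.17, which includes 1). The ratio was 1.03 in the two-cell-like cluster (27 cells with both where 26.2 are given) and 1.05 in the Rhox cluster (37 where 35.3 are given). It was 1.14 in cluster 2 and 1.20 in cluster 3. In clusters 4, 5 and 7, where 13.3%, 18.3% and 23.4% of cells were called doublets, it was 4.26, 3.04 and 3.40, from 14, 4 and 3 cells with both. Without called doublets it was 4.56 in cluster 4 (6 cells with both), 0 in cluster 5 (0 cells) and 4.78 in cluster 7 (1 cell). In cluster 6 it was 0.645, from 6 cells.

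Across 40 finer groups of 55 to 701 cells, which share 1 library and its free RNA, each gene was set beside 6575 others by Pearson correlation of log2 CPM as a description. Dppa2 was most like Dppa4 (r 0.93), followed by the germline gene Tex19.1, Fmr1nb, Fthl17c and Mcl1 (each 0.92). Dppa4 was most like Rbmxl2 (0.97), Mageb16 (0.96), Smim40 (0.93), Ipp (0.93) and Dppa2 (0.93). Dppa3 was most like the naive factor Klf2 (0.94), then Tex19.1, Ooep and Dppa5a (each 0.92) and Pigp (0.91). Dppa5a was most like its KH relative Ooep (0.95), then Hsf2bp, Smim40 and Mageb16 (each 0.95) and Dnmt3l (0.93). The loosest pair among the 4 was Dppa3 and Dppa4 (0.78). With Spearman's rank correlation in its place, 10 of the 20 genes named were chosen again, and Ipp fell to a rho of 0.53 with Dppa4.

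The authors' tag table left 21465 called cells unassigned, and among kept cells 31 were given to CMO311 and 22 to CMO312. Kept cells were also ordered by the ratio of CMO311 to CMO312 counts, from low to high, in 4 equal groups. Over all kept cells Dppa3 had 51.8, 96.5, 139 and 89.7 CPM in these groups, which held 13.1%, 30.7%, 43.6% and 24.3% naive-like cells. Within the naive-like cluster Dppa3 had 134, 157, 213 and 179 CPM in the same groups and Dppa2 had 128, 128, 120 and 123 CPM. Dppa4 had 206, 227, 208 and 194 CPM and Dppa5a 4781, 5164, 4518 and 4242 CPM. Since the tags match no sample label, these values belong to no group of the study.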

How the data were processed

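Droplet-based 3' single-cell libraries (chemistry 3.1, per the labels' protocols) were deposited as 1 raw matrix of UMI counts per gene and barcode, which the file headers credit to the authors' run of Cell Ranger 8.0.1. It holds 2578653 barcodes, 33696 genes and 12 tag oligos. The submitters' processing notes also list Seurat, and no output of it was used. The deposited tag table gives an assignment probability as a fraction and tag counts as log10 of count plus 1, per the file headers and a check against the matrix. Only CMO311 and CMO312 appear in it, and neither matches a sample, so the library was treated as 1 sample. No source used here names the authors' genome build, and no coordinates are printed. Gene copies were compared in GENCODE M21 (GRCm38).

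Cells with fewer than 1000 genes or over 10% mitochondrial UMIs were removed. Depth of the rest ran from 1265 to 34748 UMIs (median 6473), 121114764 UMIs in all, which sets the width of the intervals. Clusters came from scanpy 1.11.5 (Leiden, resolution 0.5, 30 components, 15 neighbours) on 1997 variable genes without the 4 members and cell cycle genes. A cluster took a name with at least 3 markers of a list raised 2-fold at 20 CPM, no fewer of the list raised than not, and 1 or more in its top 10 genes, where the next list had to have under 0.5 times that number. The germ cell and Rhox list gives no cell type name. Cluster 8 had Dppa3 among its leading genes although it was left out of the clustering. Finer groups used resolution 3. Ratios used a pseudocount of 1 CPM. Shares used cells thinned to 2000 UMIs, with exact binomial 95% intervals. Doublets called by Scrublet (expected rate 0.1) were left in unless stated, and free RNA was not removed.

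The members, lists, markers and the naming rule were chosen with earlier results of these data known. The text names the members, the 5 genes most like each (at least 50 CPM in 1 group, without provisional, mitochondrial or ribosomal names), the leading genes of a cluster, and up to 4 genes per list by the size of their naive-like ratio. List genes named for clusters 8 and 10, the Dppa3 split, the bins of two-cell and Rhox UMIs and Dppa1 were chosen after values were seen. One gene that this rule would name is not reported here. The scripts were tested on simulated data. Alternatives were other clusterings, cell filters, doublet and free RNA treatment, totals, pseudocounts, thinning depths and classes taken from marker UMIs.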

Additional observations from a re-analysis of the deposited data

How the results depend on the processing

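No log2 ratio changed sign; of 83 recomputed values, 52 moved (by more than a counting interval, or, for the genes most like each member, in which were chosen) and 31 did not. With 1 library there was no test and no replicate to leave out. No paired analysis was possible because each group has 1 sample and the matrix is pooled.

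For the log2 ratios over other cells, in the order Dppa2, Dppa3, Dppa4 and Dppa5a in the naive-like cluster, leaving out called doublets gave 0.92, 1.88, 0.78 and 1.55, and setting the top 25% of cells by naive marker UMIs against the bottom 25% gave 1.31, 2.50, 1.01 and 1.93. Under that class all 4 genes passed 2-fold, Dppa4 only just (1.01), against 2 of 4 with clusters. That class leaves out the cells between the top and bottom 25%. The share of all genes that pass 2-fold under it was not computed, so the count is no result about the 4 genes. With members allowed in the clustering Dppa3 was 1.75 and Dppa4 0.68; at resolution 1.0 Dppa3 was 2.12 and Dppa5a 1.51. The strict filter (2000 genes, 5% mitochondrial UMIs) gave Dppa3 1.57, Dppa4 0.66 and Dppa5a 1.30, and the lenient one (500 genes, 20%) gave Dppa3 2.14 and Dppa5a 1.53. A pseudocount of 10 CPM gave Dppa2 0.77 and Dppa3 1.49, and totals without mitochondrial and ribosomal protein genes gave Dppa5a 1.42.

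Dppa2 in the two-cell-like cluster was 2.29 with the strict filter, 2.55 without called doublets, 2.30 with a pseudocount of 10 CPM and 2.75 by marker UMIs. Dppa3 in the Rhox cluster was 2.43 at resolution 1.0, 2.30 with the strict filter, 2.47 with a pseudocount of 10 CPM and 2.73 by marker UMIs. Dppa5a there was 1.39 at resolution 1.0, 1.37 with the strict filter, 1.53 without called doublets, 1.51 on totals without mitochondrial and ribosomal protein genes and 1.34 by marker UMIs. The lenient filter gave no Rhox cluster and so no value.

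Free RNA scaled so that fibroblast genes reach 0 in naive-like cells took 6222 of a mean 7636 UMIs per cell. The log2 ratios it left, 8.09, 8.22, 8.36 and 12.3 in naive-like cells, 4.84 for Dppa2 in two-cell-like cells, and 11.4 and 14.3 for Dppa3 and Dppa5a in the Rhox cluster, have no reading as levels. Subtracted at the mean depth of cell-free droplets (217 UMIs), a choice made after seeing the data, it gave 1.71 for Dppa3 and 1.47 for Dppa5a in naive-like cells and 1.51 for Dppa5a in the Rhox cluster. The cause of the other shifts was not tested.

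Shares of naive-like cells depended on depth. For Dppa2, Dppa3, Dppa4 and Dppa5a they were 11.1%, 15.7%, 18.4% and 95.9% at 1000 UMIs, and 55.1%, 55.0%, 73.7% and 99.9% without thinning. The co-detection ratio of Dppa2 and Dppa4 ran from 1.04 to 1.06. Spearman's correlation shared 10 of 20 genes with Pearson's.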

Other observations

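Called cells outside the filter also carried the 4 genes. In 4308 cells over 10% mitochondrial UMIs, Dppa2 had 45.9 CPM, Dppa3 54.3 CPM, Dppa4 142 CPM and Dppa5a 1838 CPM. All 4 levels lay below those of the naive-like cluster. In 444 cells under 1000 genes with at most 10% mitochondrial UMIs, the levels were 76.3 CPM for Dppa2, 60.1 CPM for Dppa3, 120 CPM for Dppa4 and 1776 CPM for Dppa5a.

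The ratio of Dppa3 to Dppa5a UMIs was 0.127 in the two-cell-like cluster, 0.0738 in the Rhox6 and Rhox9 cluster, 0.0384 in the naive-like cluster, 0.0313, 0.0315 and 0.0320 in clusters 4, 5 and 6, and 0.0219, 0.0235 and 0.0196 in clusters 2, 3 and 9. In cell-free droplets it was 0.0327. In the fibroblast-like cluster it was 0.0366 (0.0311 to 0.0429) and in the macrophage-like cluster 0.0398 (0.0238 to 0.0629), both overlapping the naive-like interval of 0.0375 to 0.0394.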
